A study of Mus musculus with 12 samples.

Results

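The nonfibrillar collagens are the collagen chains that build sheets, beaded filaments, anchoring fibrils and linkers in place of thick banded fibrils. The genes described here were taken by name: every symbol in the deposited count files that reads Col, a type number, a and a chain number was kept for collagen types 4, 6, 7, 8, 10 and 12 to 28. That gave 32 genes of the 24391 in the files, and the rule uses names alone. Types 24 and 27 fall inside the rule although their domain structure places them with the fibril-forming collagens. The 12 genes of types 1, 2, 3, 5, 9 and 11 were left out.

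The series profiled RNA from the dissected anterior hard palate of mouse embryos by RNA sequencing. Shox2-Cre;R26R-Fgf8 mutants at embryonic day 14.5 (E14.5) were set against controls of that age, and mutants at E16.5 against controls of that age, with 3 libraries in each of the 4 groups. All animals are labelled strain C57BL/6. In the mutants, Cre expressed under Shox2 control activates an Fgf8 transgene held at the Rosa26 locus, so that extra Fgf8 comes from cells of the Shox2 lineage, which in the palate is anterior mesenchyme. Controls are labelled wild type, and whether they carried either allele alone is not stated. Whether a sample was 1 embryo or a pool is not given in the labels, so p-values measure only the spread between samples of unstated origin.

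Type 4 collagen forms the flexible network of basement membranes, the thin sheets under epithelia and around vessels, muscle and nerve. Type 6 forms beaded filaments beside cells, types 7 and 17 fix epithelium to the tissue under it, and type 8 forms hexagonal lattices in the cornea and in vessel walls. FACIT collagens sit on the surface of fibrils, multiplexins join basement membranes to neighbouring fibrils, and types 13, 17, 23 and 25 span the cell membrane. In the palate these proteins lie where the epithelium, the vessels and the bone-forming mesenchyme meet.

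Total counts ran from 76417891 to 125996587 per library. Levels are in CPM (counts brought to a common library total with TMM factors), and levels of different genes are compared as CPM per kilobase of exon. Fgf8, the transgene product, had 10.5, 11.1 and 10.8 CPM in E14.5 mutants and 0.275, 0.249 and 0.423 CPM in E14.5 controls, then 16.5, 14.01 and 17.8 CPM in E16.5 mutants and 0.430, 0.462 and 0.257 CPM in E16.5 controls, so every library matched its label. Markers of palate mesenchyme were present throughout, with no gene of 12 at 0 in any group, but they were higher in mutants. They summed to 2377 to 2736 CPM in E14.5 mutants and 1205 to 1331 CPM in E14.5 controls. At E16.5 the sums were 2038 to 2986 CPM in mutants and 880 to 1022 CPM in controls. Of the 12, 6 were called higher at E14.5 and 10 at E16.5, against 2.95% and 12.2% of all genes, and 0 were called lower. E16.5 mutant libraries 1 and 3 stood apart: 11 retinal genes summed to 145, 12.1 and 77.4 CPM in E16.5 mutant libraries 1, 2 and 3 and to 10.6 to 13.3 CPM in E16.5 controls, with Fgf15 at 40.4, 0.347 and 21.2 CPM in those mutants and 0.883, 0.0901 and 0.413 CPM in those controls. These 11 leave Sfrp2 out of a list of 12. With Sfrp2 the sums were 1084, 894 and 1204 CPM in those mutants and 795 to 997 CPM in those controls. Calls that change without libraries 1 and 3 are given both ways. That fit keeps 1 E16.5 mutant library, so its adjusted p-values do not measure the spread of E16.5 mutants. In whole tissue, fewer cells of a type and less RNA per cell cannot be told apart.

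The 32 genes covered a wide range of levels. A mean of at least 100 CPM in some group was reached by 20 of them, while 6 (Col4a3, Col4a4, Col6a4, Col6a5, Col10a1 and Col19a1) stayed under 2 CPM in every group. Per kilobase, the highest in E14.5 mutants was Col26a1 at 154 ± 3.46, followed by Col6a1 at 128 ± 6.60 and Col4a1 at 113 ± 6.49 (SD, n = 3). In E14.5 controls Col6a1 at 149 ± 5.88 and Col26a1 at 142 ± 4.96 lay within the sum of their SDs of each other, and Col6a2 followed at 131 ± 6.90. In E16.5 mutants Col17a1 at 161 ± 41.9 and Col6a1 at 121 ± 13.5 CPM per kilobase differed by less than the SD of Col17a1. E16.5 controls had Col17a1 first at 181 ± 12.1, with Col6a1 next at 128 ± 5.33.

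**Figure D1:**
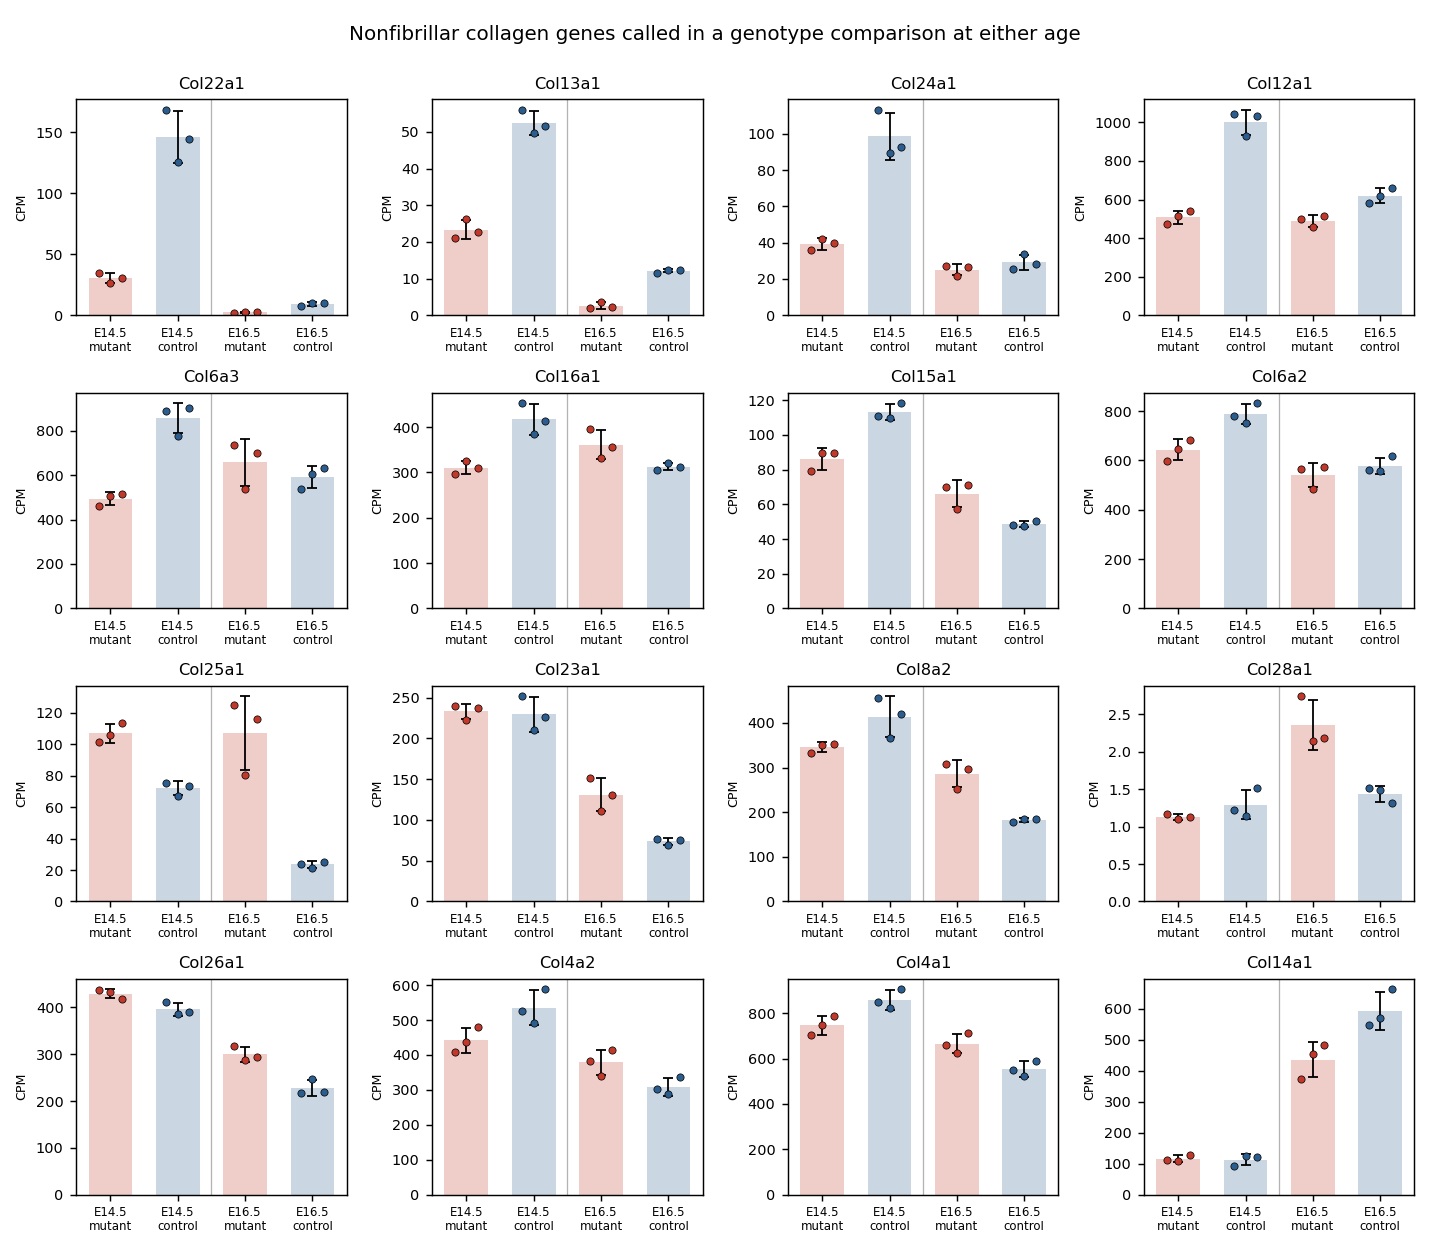
Level in CPM of the 16 collagens called between genotypes at either age, with a point for each library, bars for the mean and error bars for the SD (n = 3), and mutant groups left of their controls. Col22a1 and Col13a1 sit lower in mutants at both ages, and Col25a1 higher.

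At E14.5 the mutants had less of this set as a whole. The 32 genes together summed to 5657, 5939 and 6214 CPM in E14.5 mutants against 7664, 7125 and 7846 CPM in E14.5 controls, and no mutant library reached any control library. In the edgeR quasi-likelihood test, 9 of the 32 were called (adjusted p, by Benjamini and Hochberg over all genes, under 0.05), 8 of them lower and 1 higher in mutants. Among all genes tested at that age 7.52% were called, 4.57% lower and 2.95% higher. For 16 of the 32 every mutant library lay under every control library, and for 5 every mutant library lay above, against 13.99% and 14.6% of all genes. The median log2 fold change was -0.22 over the 32 genes and 0.01 over all genes. DESeq2 called 17 of the 32, 2 of them higher, with 13.9% of all genes called by that tool.

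At E16.5 the sums of mutants and controls overlapped, and of the genes called more were higher than lower. The summed level was 6809, 6937 and 7479.7 CPM in E16.5 mutants and 6697, 6789.7 and 7402 CPM in E16.5 controls, with the groups overlapping. Of the 31 genes that passed the low-count filter, all but Col10a1, 12 were called, 8 higher and 4 lower in mutants. Over all genes 27.9% were called at that age, 12.2% higher and 15.7% lower. Groups did not overlap for 9 genes that were higher and 6 that were lower, against 18.3% and 24.5% of all genes. The median log2 fold change was -0.05, and 0.01 over all genes. The count fell to 7 (5 higher) without control library 2 and to 6 (3 higher) with replicates 1 and 2 alone. Over all genes the calls fell from 4793 to 2781 and 2286 in the same fits.

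The genotype effect itself differed between the ages for 13 of the 32 genes, and the difference (E16.5 minus E14.5) was positive for 12 of them and negative for Col13a1. Over all genes 22.3% were called for this difference, 9.97% positive and 12.4% negative. Its median was 0.27 on the log2 scale over the 32 genes and -0.01 over all genes. The genotype comparisons, the comparisons between ages and this difference use the same libraries, so they are not separate lines of evidence.

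**Figure D2:**
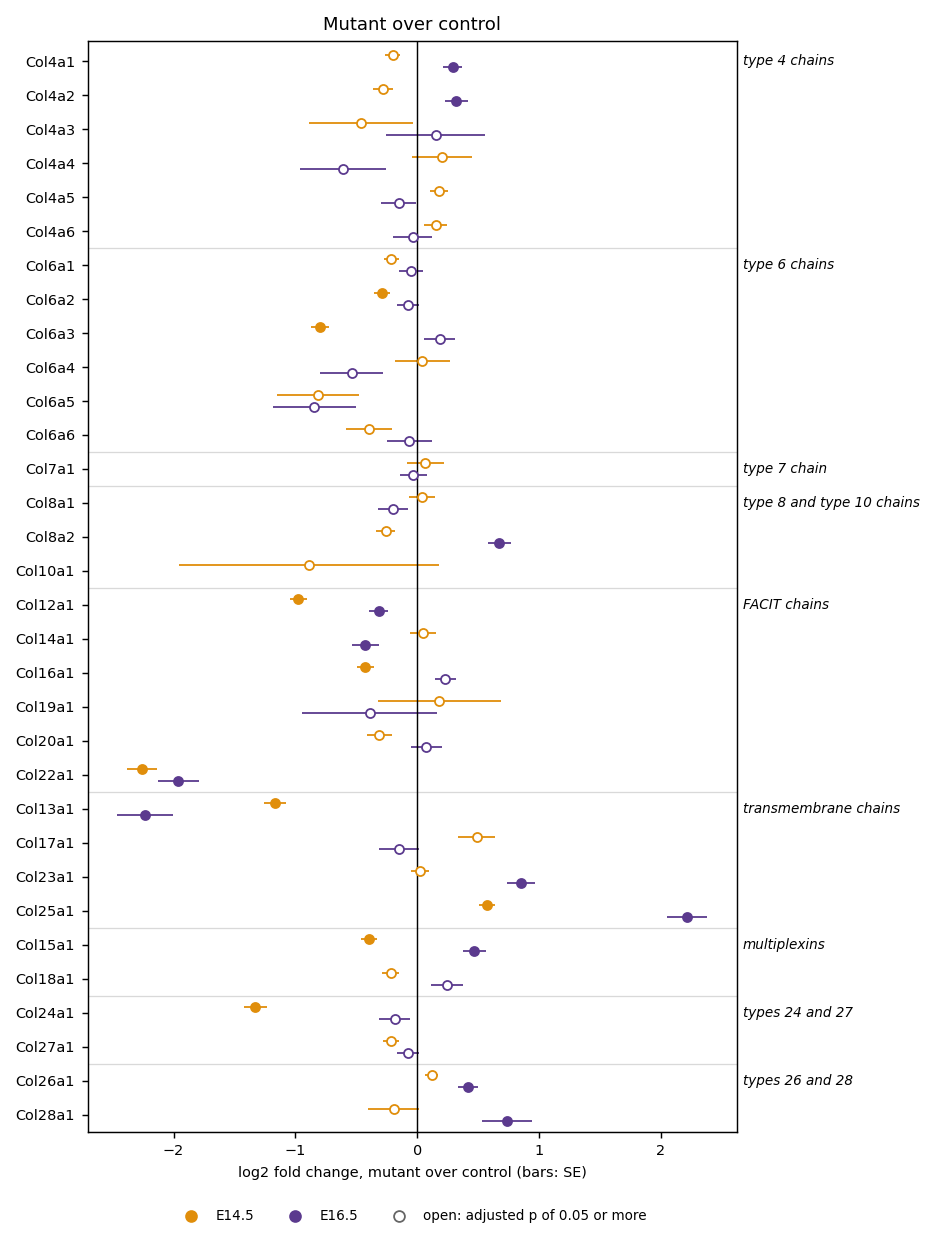
Log2 fold change of mutants over controls at E14.5 and at E16.5 for each gene, with bars of 1 SE and filled points for an adjusted p under 0.05. Points left of 0 dominate at E14.5, where 8 genes were called lower and 1 higher, whereas at E16.5 8 were called higher and 4 lower.

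The principal basement membrane chains, Col4a1 and Col4a2, were called higher in mutants at E16.5, whereas at E14.5 they lay lower without overlap but short of a call. Their genes lie head to head on chromosome 8 and share a promoter region. It is printed because the chains had like values in both comparisons: the RefSeq windows (build GRCm38.p6) run from 250 bases before to 50 bases after each start and share 78 bases. Capitals mark matches, on either strand, to a GC box (GGGCGG) or a CCAAT box (CCAAT).
Col4a1, chr8:11312777-11313076, minus strand: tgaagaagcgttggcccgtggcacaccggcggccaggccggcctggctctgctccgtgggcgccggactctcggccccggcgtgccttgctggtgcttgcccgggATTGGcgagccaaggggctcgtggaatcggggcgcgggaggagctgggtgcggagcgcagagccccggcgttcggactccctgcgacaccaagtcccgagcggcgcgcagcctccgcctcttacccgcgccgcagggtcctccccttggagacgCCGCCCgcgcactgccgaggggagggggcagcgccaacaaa
Col4a2, chr8:11312555-11312854, plus strand: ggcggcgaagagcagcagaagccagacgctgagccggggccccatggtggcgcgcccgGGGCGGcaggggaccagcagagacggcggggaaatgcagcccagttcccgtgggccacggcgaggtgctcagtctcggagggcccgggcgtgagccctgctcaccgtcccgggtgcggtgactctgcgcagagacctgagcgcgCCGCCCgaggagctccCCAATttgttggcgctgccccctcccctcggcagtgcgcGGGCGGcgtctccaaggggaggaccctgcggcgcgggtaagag
The GC box letters near the end of each window lie in the shared stretch and are the same bases read from opposite strands. The GC box letters occur in 35.7% of 32851 promoter windows in the table and in 17 of 29 windows of these collagens, which cover 27 of the 32 genes. The CCAAT letters occur in 37.4% and in 9 of 29. TATAAA, searched on both strands too, is in 13.6% and in 3 of 29, TGTGGT in 16.8% and in 3 of 29, and CCGGAAG in 8.86% and in 0 of 29. No match overlapped a match to another motif in the windows printed here.

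Col4a1 had 703, 749 and 788 CPM in E14.5 mutants and 849, 822 and 907 CPM in E14.5 controls. Every mutant library was below every control library, yet the difference did not pass the test (log2 fold change -0.20, SE 0.06, adjusted p = 0.0901); DESeq2 called it (adjusted p = 0.0293). E16.5 mutants held 662, 627 and 712 CPM and E16.5 controls 548, 524 and 591 CPM. Here all mutant libraries exceeded all control libraries, and the difference was called (log2 fold change 0.29, SE 0.08, adjusted p = 0.0262). The call did not survive leaving out mutant libraries 1 and 3 (log2 fold change 0.18, adjusted p = 0.297) or any of mutant library 1, mutant library 3, control library 1 and control library 2 alone (adjusted p = 0.0549, 0.0867, 0.0945 and 0.125).

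Col4a2 followed the same course. It had 409.8, 436 and 479 CPM in E14.5 mutants and 527, 490.2 and 589 CPM in E14.5 controls, without overlap but short of a call (log2 fold change -0.28, SE 0.08, adjusted p = 0.0709), and DESeq2 called it (adjusted p = 0.0162). In E16.5 mutants the level was 383, 341 and 413 CPM, against 302, 287 and 336 CPM in E16.5 controls. All mutant libraries were higher (log2 fold change 0.32, SE 0.10, adjusted p = 0.0367), and the call did not survive leaving out mutant libraries 1 and 3 (log2 fold change 0.15, adjusted p = 0.427) or any of mutant library 1, mutant library 3, control library 1 and control library 2 (adjusted p = 0.0839, 0.111, 0.119 and 0.153). Per kilobase, the ratio of Col4a1 to Col4a2 was 1.65 ± 0.0404 in E14.5 mutants and 1.57 ± 0.0666 in E14.5 controls, and 1.72 ± 0.0642 in E16.5 mutants and 1.75 ± 0.0361 in E16.5 controls. The ratios of mutants and controls overlapped at each age. Exons of the pair overlap by 22 bases on opposite strands, which unstranded counting could not divide.

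In controls both chains were lower at E16.5 than at E14.5 (Col4a1 log2 fold change -0.63, adjusted p = 3.89e-06; Col4a2 -0.79, adjusted p = 6.67e-06). In mutants neither was called between the ages (Col4a1 -0.16, adjusted p = 0.0685; Col4a2 -0.22, adjusted p = 0.0644), but this depended on the fit. With upper-quartile factors both were called lower at E16.5 in mutants (adjusted p = 0.0309 and 0.0387), and Col4a2 was also called without E16.5 mutant libraries 1 and 3 (log2 fold change -0.35, adjusted p = 0.0395). The genotype effect differed between the ages by 0.47 (SE 0.10, adjusted p = 0.00496) for Col4a1 and by 0.57 (SE 0.13, adjusted p = 0.00805) for Col4a2, and for Col4a2 this was lost without E16.5 mutant libraries 1 and 3 (adjusted p = 0.0724). Endothelial markers moved beside them. Their summed level over 14 genes was 686 to 711 CPM in E14.5 mutants and 813 to 863 CPM in E14.5 controls. Of the 14, 8 were called lower, against 4.57% of all genes. At E16.5 the sum was 633, 508 and 578 CPM in mutants and 359.7 to 381 CPM in controls. There 12 of 14 were called higher, against 12.2% of all genes, led by Ramp2, a receptor partner (log2 fold change 1.13), and Kdr, a VEGF receptor (0.82). No endothelial marker was at 0 in a group, and the part of these cells in the type 4 values was not tested.

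In the main tests the epithelial chains of type 4 were called between the ages and not between the genotypes. Col4a5, which joins the chain of the neighbouring gene Col4a6 in the basement membrane of stratified epithelia, had 62.2, 61.8 and 68.6 CPM in E14.5 mutants and 51.1, 58.7 and 60.2 CPM in E14.5 controls. By E16.5 mutants stood at 149.5, 236 and 216 CPM and controls at 218, 220.1 and 241 CPM. It was higher at E16.5 than at E14.5 in mutants (log2 fold change 1.64, adjusted p = 4.74e-07) and in controls (2.0, adjusted p = 3.50e-08), while neither genotype comparison was called (E14.5 0.18, adjusted p = 0.177; E16.5 -0.15, adjusted p = 0.469). Col4a6 had 18.5, 18.9 and 17.9 CPM in E14.5 mutants and 14.4, 17.9 and 17.5 CPM in E14.5 controls, then 54.0, 87.5 and 86.1 CPM in E16.5 mutants and 78.3, 73.7 and 84.8 CPM in E16.5 controls. Its age change was 2.04 in mutants and 2.25 in controls on the log2 scale (adjusted p = 2.13e-07 and 3.86e-08). At E14.5 all mutant libraries exceeded all control libraries for both chains, as for 14.6% of all genes. For Col4a6 the gap was narrow, 17.95 CPM against 17.93 CPM (log2 fold change 0.15, adjusted p = 0.373). Col4a5 was called higher at E14.5 with the replicate number as a block (adjusted p = 0.0310) and with a term marking replicate number 3 (adjusted p = 0.0423). Per kilobase Col4a5 was 0.306 ± 0.0760 of Col4a1 in E16.5 mutants and 0.413 ± 0.0115 in E16.5 controls, against 0.0870 ± 0.00319 in E14.5 mutants and 0.0668 ± 0.00568 in E14.5 controls.

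Both genes are X-linked, and the X-inactivation RNA Xist, chosen after its values were seen, differed between groups: it had 441, 521 and 497 CPM in E14.5 mutants and 861, 709 and 769.7 CPM in E14.5 controls, and 888, 914 and 895 CPM in E16.5 mutants and 341, 481 and 389 CPM in E16.5 controls. The part of embryo sex in the Col4a5 and Col4a6 values was not tested. Col4a3 and Col4a4, the chains of the kidney glomerulus, were barely detected. Col4a3 had 0.408, 0.443 and 0.770 CPM in E14.5 mutants and 1.14, 0.374 and 0.740 CPM in E14.5 controls, and 0.240, 0.520 and 0.488 CPM in E16.5 mutants and 0.263, 0.405 and 0.458 CPM in E16.5 controls. Col4a4 had 1.03, 1.03 and 1.42 CPM in E14.5 mutants and 0.826, 0.973 and 1.23 CPM in E14.5 controls, and 0.498, 0.413 and 0.869 CPM in E16.5 mutants and 1.16, 0.732 and 0.871 CPM in E16.5 controls. Neither was called between genotypes, and the only age call was a lower Col4a4 at E16.5 in mutants (log2 fold change -0.97, adjusted p = 0.0210), which was lost without E14.5 mutant library 3, E16.5 mutant library 1 or E16.5 mutant library 2 (adjusted p = 0.0975, 0.0819 and 0.0820).

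Among the type 6 chains the third chain fell out of proportion in E14.5 mutants. Col6a1, Col6a2 and Col6a3 make up the common type 6 molecule. Col6a3 had 459.8, 505 and 515 CPM in E14.5 mutants and 891, 778 and 902 CPM in E14.5 controls. The groups lay far apart (log2 fold change -0.80, SE 0.07, adjusted p = 0.000133). The E16.5 levels were 737, 538 and 701 CPM in mutants and 537, 603 and 632 CPM in controls, with mutant library 2 inside the range of the controls and no call (log2 fold change 0.18, SE 0.13, adjusted p = 0.324). Without mutant library 2 it was called higher (log2 fold change 0.31, adjusted p = 0.0369), and without libraries 1 and 3 its sign turned, with no call (log2 fold change -0.13, adjusted p = 0.521).

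Col6a2 had 599, 648 and 684 CPM in E14.5 mutants and 779, 752 and 833 CPM in E14.5 controls, without overlap, and was called lower (log2 fold change -0.29, SE 0.07, adjusted p = 0.0285). Leaving out 1 library ended the call for mutant library 1, mutant library 2, control library 1 or control library 3 (adjusted p = 0.133, 0.0918, 0.0735 and 0.107). E16.5 mutants held 564, 484 and 572 CPM and E16.5 controls 559.8, 558 and 617 CPM, and the groups overlapped (adjusted p = 0.581). Col6a1 had 495, 536 and 547 CPM in E14.5 mutants and 604, 588 and 635 CPM in E14.5 controls, and 546, 437 and 507 CPM in E16.5 mutants and 516, 506 and 548 CPM in E16.5 controls. It was lower without overlap at E14.5 but not called (adjusted p = 0.0653; DESeq2 0.0126), and overlapped at E16.5 (adjusted p = 0.744). Its age change in mutants was not called (log2 fold change -0.08, adjusted p = 0.402), but was called lower at E16.5 without E16.5 mutant libraries 1 and 3 (adjusted p = 0.0374).

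Per kilobase the ratio of Col6a3 to Col6a2 was 0.425 ± 0.00743 in E14.5 mutants and 0.602 ± 0.0299 in E14.5 controls, but 0.672 ± 0.0547 in E16.5 mutants and 0.566 ± 0.0333 in E16.5 controls (SD, n = 3). The ratio of Col6a1 to Col6a2 moved less, at 1.20 ± 0.0234 in E14.5 mutants and 1.13 ± 0.0146 in E14.5 controls, and 1.35 ± 0.0636 in E16.5 mutants and 1.33 ± 0.0243 in E16.5 controls. The Col6a3 genotype effect differed between the ages by 0.95 (SE 0.15, adjusted p = 0.000871). Between the ages Col6a3 was higher at E16.5 in mutants (log2 fold change 0.42, adjusted p = 0.00625) but lower at E16.5 in controls (-0.54, adjusted p = 0.000723), and the mutant age call was lost without E16.5 mutant libraries 1 and 3 (adjusted p = 0.30).

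The alternative type 6 chains were scarce. Col6a6 had 3.11, 4.27 and 4.64 CPM in E14.5 mutants and 6.43, 4.28 and 5.11 CPM in E14.5 controls, and 1.97, 2.41 and 2.66 CPM in E16.5 mutants and 2.48, 2.57 and 2.42 CPM in E16.5 controls. Col6a4 had 1.71, 1.32 and 1.30 CPM in E14.5 mutants and 1.09, 1.63 and 1.48 CPM in E14.5 controls, and 0.575, 0.560 and 0.607 CPM in E16.5 mutants and 0.824, 0.980 and 0.771 CPM in E16.5 controls. Col6a5 had 0.446, 0.468 and 0.344 CPM in E14.5 mutants and 1.04, 0.545 and 0.635 CPM in E14.5 controls, and 0.223, 0.293 and 0.214 CPM in E16.5 mutants and 0.478, 0.496 and 0.357 CPM in E16.5 controls. None of these was called between genotypes at either age (the lowest adjusted p was 0.10, for Col6a5 at E16.5). Col6a5 lay lower in mutants without overlap at both ages (log2 fold change -0.81 at E14.5 and -0.84 at E16.5), and Col6a4 did so at E16.5 (-0.54). Among all genes 13.99% were lower without overlap at E14.5 and 24.5% at E16.5. With age, Col6a6 was lower at E16.5 in mutants (log2 fold change -0.77) and in controls (-1.08), and so was Col6a4 (-1.31 in mutants, -0.71 in controls). The Col6a6 call in mutants was lost without E16.5 mutant libraries 1 and 3 (log2 fold change -0.71, adjusted p = 0.0574) and with replicates 1 and 2 alone (adjusted p = 0.0549). The Col6a4 call in controls was lost without E14.5 control library 2 (adjusted p = 0.0674) and with replicates 1 and 2 alone (adjusted p = 0.146).

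Among the chains that anchor the epithelium was the largest rise with age of the 32 genes. Col17a1, a transmembrane collagen of hemidesmosomes, had 168, 157 and 179 CPM in E14.5 mutants and 86.0, 145 and 129 CPM in E14.5 controls. In E16.5 mutants the level was 637, 1089 and 969 CPM, against 964, 977 and 1086 CPM in E16.5 controls, with mutant library 1 the lowest of the 6. It was higher at E16.5 than at E14.5 in mutants (log2 fold change 2.42, adjusted p = 4.98e-07) and in controls (3.07, adjusted p = 2.83e-08). Neither genotype comparison was called, although all E14.5 mutant libraries exceeded all E14.5 controls (log2 fold change 0.49, SE 0.15, adjusted p = 0.0845; DESeq2 adjusted p = 0.0119, without control library 2 0.0260). Col7a1, the chain of anchoring fibrils, had 64.6, 73.7 and 66.7 CPM in E14.5 mutants and 47.4, 79.7 and 68.9 CPM in E14.5 controls, and 238, 338 and 292 CPM in E16.5 mutants and 306, 293 and 300.4 CPM in E16.5 controls. Its age change was 2.08 in mutants and 2.20 in controls on the log2 scale, and the genotypes overlapped at both ages (adjusted p = 0.840 at E14.5 and 0.865 at E16.5).

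Markers of basal epithelium moved with these chains. Their summed level over 12 genes was 1966, 1914 and 2012 CPM in E14.5 mutants and 1167, 1893 and 1633 CPM in E14.5 controls, and 8394, 13848 and 11465 CPM in E16.5 mutants and 13497, 13139.8 and 13542 CPM in E16.5 controls. E14.5 control library 1 and E16.5 mutant library 1 were low for the markers and for Col17a1 and Col7a1 alike. With age, 12 of 12 epithelial markers were called higher in mutants and 12 of 12 in controls, against 27.2% and 34.3% of all genes. Between genotypes, 2 of the 12 were called higher at E14.5 and 1 lower at E16.5, against 2.95% and 15.7% of all genes. The difference of genotype effects was called negative for 3 of the 12, against 12.4% of all genes. Of 10 hemidesmosome genes, which include parts of the same list, 9 were called higher with age in each genotype. At E14.5 1 of 10 was called between genotypes (Cd151, a membrane partner of integrins, log2 fold change 0.33) and higher in mutants. The part of epithelial content in the Col17a1, Col7a1, Col4a5 and Col4a6 values was not tested.

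**Figure D3:**
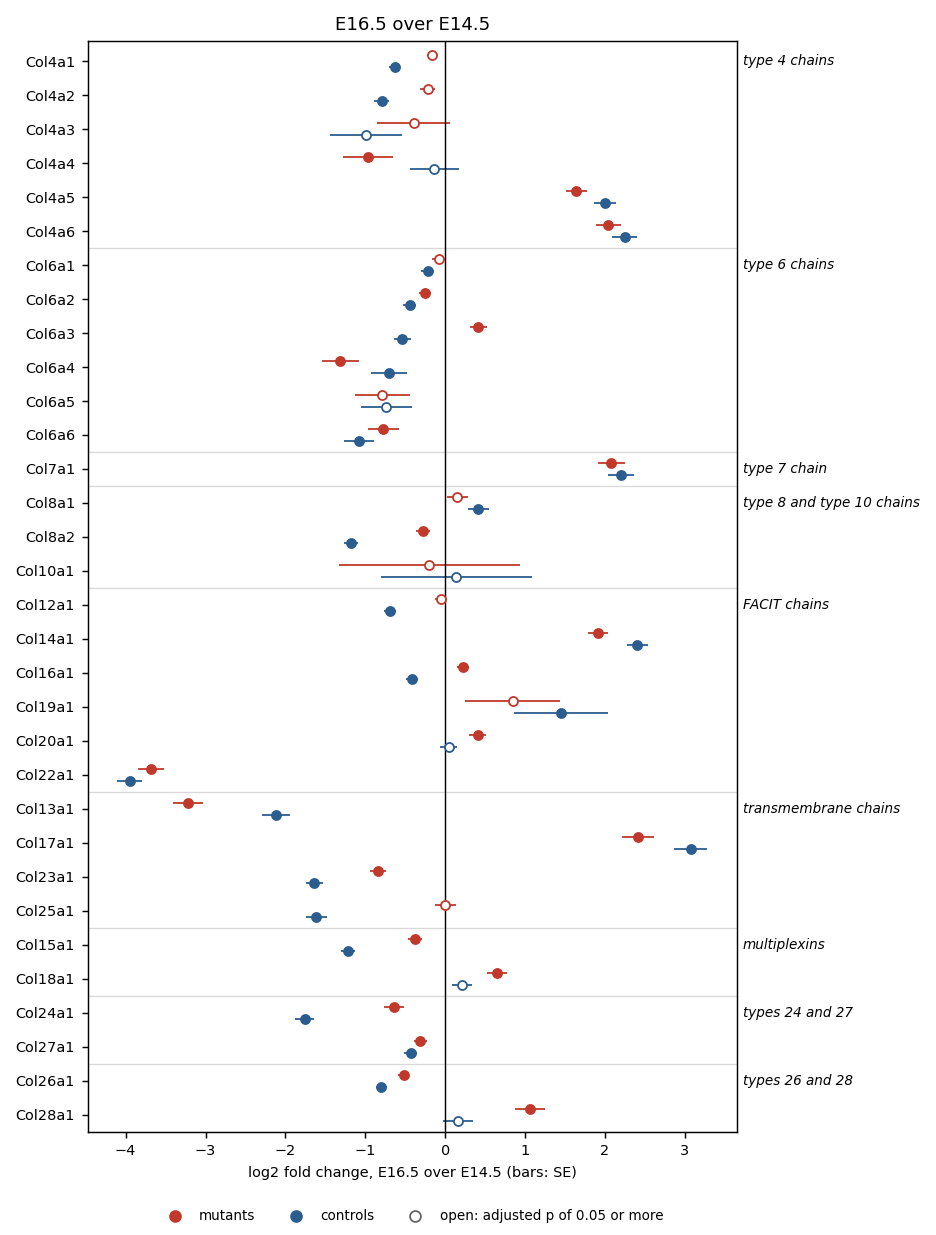
Log2 fold change of E16.5 over E14.5 for each gene in mutants and in controls, with bars of 1 SE and filled points for an adjusted p under 0.05. Col17a1, Col14a1, Col4a6, Col7a1 and Col4a5 lie far to the right in both genotypes, Col22a1 and Col13a1 far to the left, and Col25a1 sits at 0.00 in mutants but at -1.61 in controls.

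Across the 32 genes, 22 were called between the ages in mutants, 10 higher and 12 lower at E16.5, against 51.6% of all genes (27.2% higher, 24.4% lower). In controls 25 were called, 7 higher and 18 lower, against 66.4% of all genes (34.3% higher, 32.1% lower). The median log2 change with age was -0.18 in mutants and -0.49 in controls, and 0.00 over all genes in each. In controls, the genes higher at E16.5 were Col17a1, Col14a1 (2.40), Col4a6, Col7a1, Col4a5, Col8a1 (0.42) and Col19a1 (1.45), the last with under 1 CPM in every library. The Col19a1 call was lost in 9 alternatives (adjusted p = 0.0515 to 0.169), 7 of them with a single library left out, including each control library except E16.5 control library 3. The Col8a1 call was lost without E14.5 control library 2 or E16.5 control library 3 (adjusted p = 0.0550 and 0.0966).

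The short-chain collagens split. Col8a2, a type 8 chain of the cornea and of vessel walls, was higher in mutants at E16.5. It had 309, 253 and 297 CPM in E16.5 mutants and 177, 185 and 185 CPM in E16.5 controls. The lowest mutant library was well above the highest control library (log2 fold change 0.67, SE 0.09, adjusted p = 0.000984). Without mutant libraries 1 and 3 the log2 fold change of Col8a2 was 0.48. At E14.5 it had 333, 351 and 354 CPM in mutants and 457, 365 and 421 CPM in controls, lower without overlap but not called (log2 fold change -0.26, SE 0.08, adjusted p = 0.0817; DESeq2 adjusted p = 0.0242). The genotype effect differed between the ages by 0.91 (SE 0.12, adjusted p = 0.000255).

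Its partner chain Col8a1 overlapped between genotypes. Col8a1 had 201, 177 and 239.7 CPM in E14.5 mutants and 205, 179 and 216 CPM in E14.5 controls, and 202, 224 and 261 CPM in E16.5 mutants and 249, 239 and 312 CPM in E16.5 controls. The E16.5 difference was not called (log2 fold change -0.20, SE 0.12, adjusted p = 0.269), but was called lower with the replicate number as a block (adjusted p = 0.0232). Per kilobase, the ratio of Col8a1 to Col8a2 was 0.684 ± 0.112 in E16.5 mutants and 1.24 ± 0.172 in E16.5 controls, and 0.505 ± 0.0745 in E14.5 mutants and 0.410 ± 0.0271 in E14.5 controls. Markers of pericytes and smooth muscle, cells of the vessel wall, moved with Col8a2 at E16.5. Their summed level over 12 genes was 552, 540.4 and 581 CPM in E16.5 mutants and 457, 448 and 486 CPM in E16.5 controls, with 7 of 12 called higher, 1 lower and none at 0 in a group, and their part in the Col8a2 values was not tested. Over 12 lens genes the sum was 39.8 to 45.5 CPM in E16.5 mutants and 55.4 to 63.8 CPM in E16.5 controls. Of the 10 tested 2 were called, both lower, which is near the share of all genes. At that age 15.7% of all genes were called lower and 12.2% higher.

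Col10a1, the short-chain collagen of hypertrophic cartilage, was close to the limit of detection. Its raw counts were 0, 0 and 18 in E14.5 mutants and 20, 20 and 3 in E14.5 controls, and 5, 4 and 8 in E16.5 mutants and 6, 21 and 12 in E16.5 controls. It was not called at E14.5 (adjusted p = 0.671) and was not tested at E16.5. A count of 0 allows up to 3 counts, which is 0.0384 CPM in E14.5 mutant library 1 and 0.0381 CPM in library 2, before TMM scaling and for counting error only. General cartilage markers had a summed level over 12 genes of 110.2 to 138 CPM in E14.5 mutants and 55.5 to 71.6 CPM in E14.5 controls, and 202 to 217 CPM in E16.5 mutants and 71.9 to 87.9 CPM in E16.5 controls. Of the 11 tested, 3 were called higher and 1 lower at E14.5, and 5 higher and 0 lower at E16.5. Over all genes 2.95% were called higher and 4.57% lower at E14.5, and 12.2% higher and 15.7% lower at E16.5. A list of 8 genes taken as markers of hypertrophic chondrocytes went the other way, and it shares Ibsp and Alpl with the osteoblast list. It summed to 1055 to 1196 CPM in E14.5 mutants and 2564 to 3118 CPM in E14.5 controls. At E16.5 it summed to 238 to 261 CPM in mutants and 531 to 655 CPM in controls. The osteoblast list moved the same way, and which cells these values came from was not tested. Of the 8, 6 were called lower at E14.5, and 5 lower and 1 higher at E16.5.

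Of the FACIT collagens, which sit on fibrils, Col22a1 showed the largest genotype effect of the 32 genes at E14.5. Col22a1 is best known from tissue junctions such as that of muscle and tendon. It had 35.1, 26.5 and 30.3 CPM in E14.5 mutants and 169, 126 and 145 CPM in E14.5 controls. Even the highest mutant library was far below the lowest control library (log2 fold change -2.26, SE 0.12, adjusted p = 4.35e-06). By E16.5 mutants stood at 2.09, 2.79 and 2.32 CPM and controls at 7.76, 10.4 and 10.2 CPM, again without overlap (log2 fold change -1.96, SE 0.17, adjusted p = 7.24e-05). Without mutant libraries 1 and 3 the log2 fold change of Col22a1 was -1.76. It also had the largest fall with age of the 32 genes in each genotype (log2 fold change -3.69 in mutants and -3.95 in controls), and its genotype effect was not called as different between the ages (0.27, adjusted p = 0.421).

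Markers of skeletal muscle were low beside it, with a summed level over 12 genes of 14.5, 8.20 and 11.8 CPM in E14.5 mutants and 9.11, 27.3 and 20.6 CPM in E14.5 controls, and 8.14 to 12.5 CPM in E16.5 mutants and 12.6 to 21.6 CPM in E16.5 controls. Markers of osteoblasts moved the same way as Col22a1. Their summed level over 12 genes was 1105 to 1189.7 CPM in E14.5 mutants and 3070.4 to 3545 CPM in E14.5 controls, and 222 to 251 CPM in E16.5 mutants and 577 to 709 CPM in E16.5 controls. At E14.5 11 of 12 were called lower, and at E16.5 9 lower and 1 higher, and no osteoblast marker was at 0 in a group. Over all genes 4.57% were called lower at E14.5, and 15.7% lower and 12.2% higher at E16.5. The part of bone-forming cells in the values of Col22a1, Col13a1, Col24a1 and Col12a1 was not tested.

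Col12a1, which binds the surface of type 1 fibrils in tendon, bone surfaces and dense tissue, stood at 82.4 ± 5.28 CPM per kilobase in E14.5 controls, which differed from Col16a1 (80.2 ± 6.65) by less than the spread. It had 473, 515 and 539 CPM in E14.5 mutants and 1044, 927 and 1032 CPM in E14.5 controls. All mutant libraries were below all control libraries (log2 fold change -0.98, SE 0.07, adjusted p = 2.48e-05). The E16.5 levels were 498, 455 and 516 CPM in mutants and 583, 617 and 661 CPM in controls, still without overlap but closer together (log2 fold change -0.32, SE 0.08, adjusted p = 0.020). Without mutant libraries 1 and 3 the log2 fold change was -0.44. The E16.5 call was lost without control library 2 or control library 3 (adjusted p = 0.0741 and 0.0657). The effect differed between the ages by 0.63 (SE 0.11, adjusted p = 0.00111).

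Col14a1, a related fibril-surface chain, had its genotype call at the later age. It had 111, 109 and 128 CPM in E14.5 mutants and 92.4, 124 and 120.4 CPM in E14.5 controls, with overlap (adjusted p = 0.838). E16.5 mutants held 372, 452 and 482 CPM and E16.5 controls 547, 571 and 663 CPM, and every mutant library was lower (log2 fold change -0.43, SE 0.11, adjusted p = 0.0199). It no longer passed when mutant libraries 1 and 3, control library 2 or control library 3 were left out (log2 fold change -0.39, -0.45 and -0.34, adjusted p = 0.0659, 0.0628 and 0.0702). With age it was higher at E16.5 by 1.91 in mutants and 2.40 in controls on the log2 scale.

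Col16a1, a widely made linker, had 296, 324 and 311 CPM in E14.5 mutants and 454, 385 and 414 CPM in E14.5 controls, and was called lower without overlap (log2 fold change -0.43, SE 0.07, adjusted p = 0.00563). In E16.5 mutants the level was 395, 332 and 356 CPM, against 305, 322 and 312 CPM in E16.5 controls, higher without overlap but not called (log2 fold change 0.23, SE 0.09, adjusted p = 0.0769; DESeq2 adjusted p = 0.0313, without mutant library 2 0.0323). Without mutant libraries 1 and 3 the log2 fold change was 0.09 (adjusted p = 0.598). With age it was called higher at E16.5 in mutants (log2 fold change 0.22, adjusted p = 0.0279) but not without E16.5 mutant libraries 1 and 3 (adjusted p = 0.306), nor without E14.5 mutant library 1 or E16.5 mutant library 1 (adjusted p = 0.0626 and 0.0685), and it was called lower in controls (-0.41, adjusted p = 0.000312). The effect differed between the ages by 0.63 (SE 0.11, adjusted p = 0.00118). Col20a1 lay at 6.56 to 7.34 CPM in E14.5 mutants and 8.22 to 9.20 CPM in E14.5 controls. It was lower without overlap but not called (log2 fold change -0.31, SE 0.10, adjusted p = 0.0955), and DESeq2 called it (adjusted p = 0.0305). At E16.5 the genotypes overlapped (adjusted p = 0.703). With age Col20a1 was called higher at E16.5 in mutants (log2 fold change 0.41, adjusted p = 0.00686) but not in controls (0.05, adjusted p = 0.727). Col19a1 lay at 0.118 to 0.832 CPM over all 12 libraries and was not called between genotypes. Markers of tendon and dense connective tissue went both ways, with 2 of 12 called higher and 2 lower at E14.5, and 4 higher and 1 lower at E16.5. Over all genes 2.95% were called higher and 4.57% lower at E14.5, and 12.2% higher and 15.7% lower at E16.5.

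The other transmembrane collagens went opposite ways. Col13a1, a surface collagen of adhesion sites, of bone and of the neuromuscular junction, was lower in mutants at both ages, whereas Col25a1, a membrane collagen known from neurons and needed in mice for motor axons to enter muscle, was higher at both. Their RefSeq promoter windows (GRCm38.p6) are shown for this opposite behaviour, with capitals for the same GC box and CCAAT letters and for TATAAA, on either strand.
Col13a1, chr10:61979059-61979358, minus strand: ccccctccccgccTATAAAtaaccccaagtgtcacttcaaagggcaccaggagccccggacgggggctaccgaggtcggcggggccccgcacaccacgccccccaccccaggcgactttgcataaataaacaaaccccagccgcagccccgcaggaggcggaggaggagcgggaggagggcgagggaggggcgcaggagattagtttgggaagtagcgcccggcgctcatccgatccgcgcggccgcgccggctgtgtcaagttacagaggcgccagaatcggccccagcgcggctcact
Col25a1, chr3:130180595-130180894, plus strand: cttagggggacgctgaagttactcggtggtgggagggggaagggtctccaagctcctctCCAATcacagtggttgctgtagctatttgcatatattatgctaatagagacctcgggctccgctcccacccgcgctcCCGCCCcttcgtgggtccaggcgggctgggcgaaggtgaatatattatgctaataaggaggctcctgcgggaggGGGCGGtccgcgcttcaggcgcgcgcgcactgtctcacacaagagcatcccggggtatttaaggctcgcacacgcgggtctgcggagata
The Col13a1 window holds TATAAA letters far upstream of the start and no GC box or CCAAT letters, and the Col25a1 window holds 2 GC box matches and 1 CCAAT match. Neither holds TGTGGT or CCGGAAG on either strand.

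Col13a1 had 21.1, 26.1 and 22.7 CPM in E14.5 mutants and 56.0, 49.6 and 51.7 CPM in E14.5 controls. No mutant library came near the controls (log2 fold change -1.17, SE 0.09, adjusted p = 2.77e-05). By E16.5 mutants stood at 1.86, 3.63 and 2.16 CPM and controls at 11.6, 12.3 and 12.4 CPM. The groups were again apart, with mutant library 2 the highest mutant (log2 fold change -2.23, SE 0.23, adjusted p = 0.000185). Without mutant libraries 1 and 3 the log2 fold change of Col13a1 was -1.73. It was the 1 gene whose effect was called as more negative at E16.5, by -1.10 (SE 0.24, adjusted p = 0.00665), and this was lost without mutant libraries 1 and 3 (log2 difference -0.55, adjusted p = 0.0520) and with replicates 1 and 2 alone (adjusted p = 0.113).

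Col25a1 had 102, 106 and 114 CPM in E14.5 mutants and 75.7, 67.0 and 73.6 CPM in E14.5 controls. Every mutant library was higher, and it was the 1 gene of the 32 called higher at that age (log2 fold change 0.57, SE 0.07, adjusted p = 0.000627). The E16.5 levels were 125, 80.5 and 116 CPM in mutants and 24.1, 21.4 and 25.2 CPM in controls. The mutant library with the least Col25a1, library 2, was still far above every control (log2 fold change 2.21, SE 0.16, adjusted p = 3.17e-05). Without libraries 1 and 3 the log2 fold change was 1.78. Neuron markers summed to 367, 84.6 and 228 CPM in E16.5 mutants and 79.9 to 81.1 CPM in E16.5 controls, with libraries 1 and 3 high and library 2 near the controls, while at E14.5 they summed to 151 to 165 CPM in mutants and 154 to 231 CPM in controls.

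Between the ages Col25a1 was lower at E16.5 in controls (log2 fold change -1.61, adjusted p = 2.27e-07) but not in mutants (0.00, adjusted p = 0.987). Without E16.5 mutant libraries 1 and 3 it was called lower with age in mutants too (-0.38, adjusted p = 0.0123). Its genotype effect differed between the ages by 1.62 (SE 0.19, adjusted p = 8.46e-05), the largest difference of the 13 called. Per kilobase, Col25a1 stood at 2.14 ± 0.237 times Col13a1 in E14.5 mutants and 0.637 ± 0.0188 times in E14.5 controls, and at 22.1 ± 10.7 times in E16.5 mutants and 0.904 ± 0.0857 times in E16.5 controls.

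Col23a1, a further membrane collagen, had 240.2, 223 and 237 CPM in E14.5 mutants and 252, 210.0 and 227 CPM in E14.5 controls, with full overlap (adjusted p = 0.877). E16.5 mutants held 151, 111 and 131 CPM and E16.5 controls 77.0, 69.4 and 74.9 CPM. All mutant libraries were higher (log2 fold change 0.85, SE 0.12, adjusted p = 0.00105). Without mutant libraries 1 and 3 the log2 fold change of Col23a1 was 0.59. The effect differed between the ages by 0.80 (SE 0.14, adjusted p = 0.00166). It was lower at E16.5 than at E14.5 in mutants (-0.84) and in controls (-1.64).

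**Figure D4:**
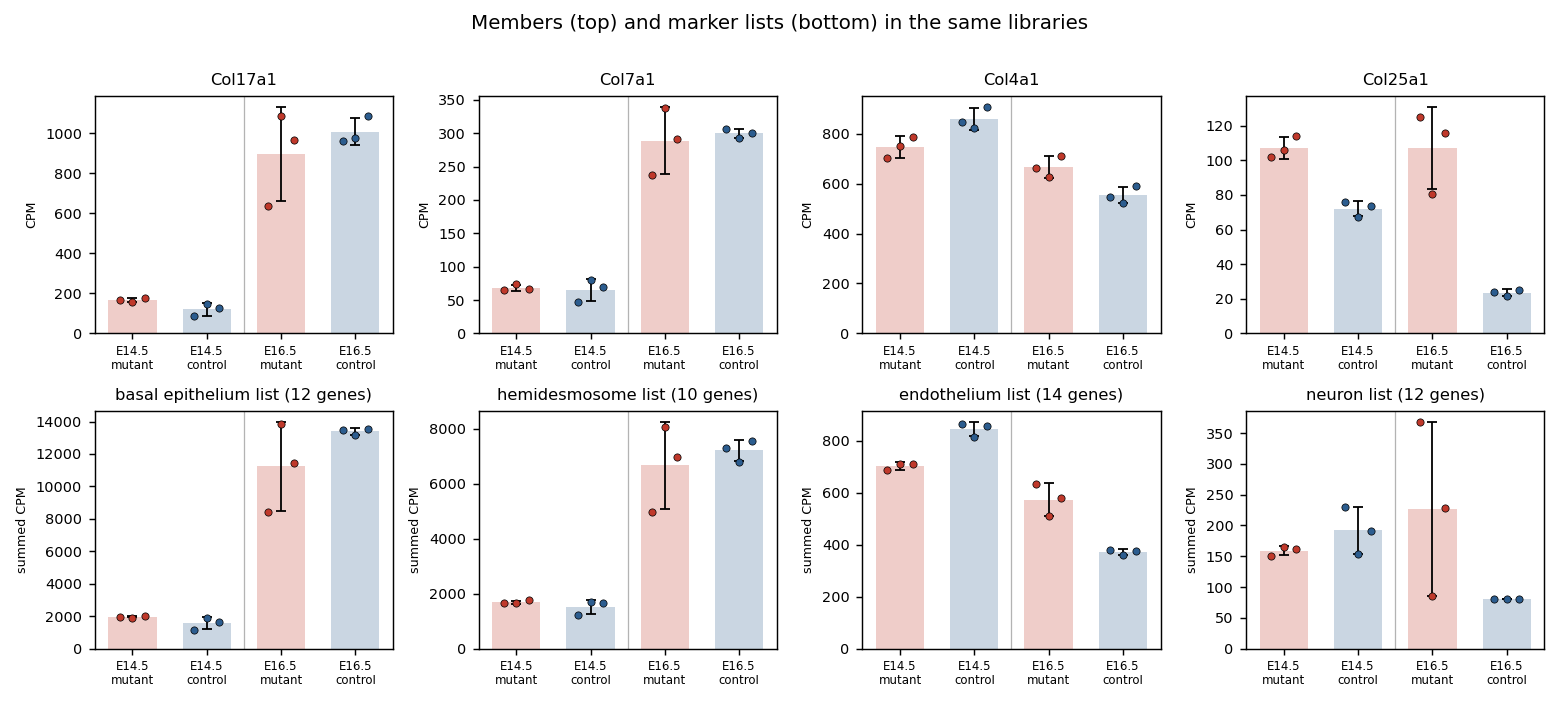
Levels of Col17a1, Col7a1, Col4a1 and Col25a1 in CPM (top) and summed CPM of the basal epithelium, hemidesmosome, endothelium and neuron lists (bottom), with a point for each library, bars for the mean and error bars for the SD (n = 3). Endothelial markers lie at 508 to 633 CPM in E16.5 mutants and 359.7 to 381 CPM in E16.5 controls, and neuron markers are high in E16.5 mutant libraries 1 and 3.

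The multiplexins, which carry heparan or chondroitin sulphate in the basement membrane zone, reversed between the ages in the case of Col15a1. Col15a1, found round capillaries and muscle, had 78.9, 89.7 and 89.5 CPM in E14.5 mutants and 111, 109.8 and 119 CPM in E14.5 controls. All mutant libraries were lower (log2 fold change -0.39, SE 0.07, adjusted p = 0.00541). In E16.5 mutants the level was 70.2, 57.1 and 71.2 CPM, against 47.8, 47.8 and 50.5 CPM in E16.5 controls, all mutant libraries being higher (log2 fold change 0.47, SE 0.10, adjusted p = 0.00774). The call did not survive leaving out mutant libraries 1 and 3 (log2 fold change 0.24, adjusted p = 0.163), nor did it with replicates 1 and 2 alone (adjusted p = 0.0736). The difference between the ages was 0.84 (SE 0.12, adjusted p = 0.000314). It went with the endothelial sums given above, and that part was not tested.

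Col18a1, the source of endostatin, had 204, 214 and 236 CPM in E14.5 mutants and 238, 251 and 269.8 CPM in E14.5 controls, lower without overlap but not called (log2 fold change -0.22, SE 0.07, adjusted p = 0.0940; DESeq2 adjusted p = 0.0407). By E16.5 mutants stood at 265, 390.1 and 372 CPM and controls at 296, 268 and 316 CPM, with mutant library 1 below all controls and libraries 2 and 3 above them (log2 fold change 0.24, SE 0.13, adjusted p = 0.214). It was called higher without mutant library 1 (log2 fold change 0.39, adjusted p = 0.0151) and without libraries 1 and 3 (adjusted p = 0.0293). The difference of its effects between the ages was not called (0.44, adjusted p = 0.0894), but was without E16.5 mutant library 1 or without libraries 1 and 3 (adjusted p = 0.00292 and 0.00841).

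Col24a1, a fibril-forming chain of developing bone in mice, had 35.8, 42.2 and 39.6 CPM in E14.5 mutants and 113, 89.7 and 93.0 CPM in E14.5 controls. The highest mutant library held less than any control library (log2 fold change -1.33, SE 0.10, adjusted p = 2.33e-05). The E16.5 levels were 27.4, 21.7 and 26.4 CPM in mutants and 25.6, 33.5 and 28.3 CPM in controls, and the groups overlapped (log2 fold change -0.19, SE 0.13, adjusted p = 0.320). The effect differed between the ages by 1.12 (SE 0.17, adjusted p = 0.000602). Col27a1, a fibril-forming chain of cartilage, had 92.0, 103 and 91.1 CPM in E14.5 mutants and 116, 105 and 112 CPM in E14.5 controls, and 85.9, 73.7 and 70.7 CPM in E16.5 mutants and 81.8, 86.5 and 78.4 CPM in E16.5 controls. It was lower without overlap at E14.5 but not called (log2 fold change -0.22, SE 0.07, adjusted p = 0.0804; DESeq2 adjusted p = 0.0309), and overlapped at E16.5 (adjusted p = 0.593).

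Col26a1, among the most abundant per kilobase, had 318, 287 and 294 CPM in E16.5 mutants and 218, 248 and 219 CPM in E16.5 controls. All mutant libraries were higher (log2 fold change 0.42, SE 0.08, adjusted p = 0.00712), and the call survived neither leaving out mutant libraries 1 and 3 nor using replicates 1 and 2 alone (adjusted p = 0.0665 and 0.0612). At E14.5 it had 438, 432 and 419 CPM in mutants and 412, 387 and 390.3 CPM in controls, higher without overlap but not called (log2 fold change 0.12, SE 0.06, adjusted p = 0.240). Col28a1, a collagen of peripheral nerve, had 2.75, 2.15 and 2.18 CPM in E16.5 mutants and 1.52, 1.49 and 1.32 CPM in E16.5 controls. It was called higher (log2 fold change 0.74, SE 0.20, adjusted p = 0.0284), but the call was lost on dropping mutant libraries 1 and 3 (adjusted p = 0.218), and also when mutant library 1, mutant library 3 or any control library alone was left out (adjusted p = 0.0564 to 0.102). At E14.5 Col28a1 had 1.16, 1.10 and 1.13 CPM in mutants and 1.22, 1.14 and 1.52 CPM in controls. Markers of Schwann cells and glia summed to 169 to 207 CPM in E16.5 mutants and 229 to 245 CPM in E16.5 controls. The list did not move as 1: its median log2 fold change was 0.10. Of its 10 genes, 2 were called lower and 0 higher, against 15.7% and 12.2% of all genes.

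Partners of these collagens were counted beside the shares of all genes called, which were 4.57% lower and 2.95% higher at E14.5. Of 23 other basal lamina genes, 7 were called lower in mutants at E14.5, with a median log2 fold change of -0.19. Among them were Sparc, a collagen-binding protein (-0.86), Fras1, a basement membrane adhesion protein (-0.63), Nid2, a nidogen that bridges laminin and type 4 collagen (-0.50), and Lamb2, a laminin chain (-0.47). At E16.5, where 27.9% of all genes were called and 12.2% called higher, 6 of the 23 were called, each of them higher, with a median of 0.10, led by the laminin chain Lama1 (0.71), Smoc1, a calcium-binding matrix protein (0.66), the vessel laminin chain Lama4 (0.54) and Frem1 (0.44). All-gene medians were 0.01 at both ages.

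Of 24 genes that modify, fold or export collagen chains, 23 were tested, and Mia3 was listed at 0 in every library. At E14.5 14 were called lower in mutants, with a median log2 fold change of -0.28. They included Creb3l1, a transcription factor for collagen secretion (-1.09), P4ha2, a prolyl hydroxylase subunit (-0.64), Fkbp10, a collagen chaperone (-0.60), and P3h1, a prolyl hydroxylase (-0.51). At E16.5 9 were called higher and 3 lower, with a median of 0.08. Over all genes 12.2% were called higher and 15.7% lower at that age. Creb3l1 (-2.85) and Tmem38b, an ion channel of the endoplasmic reticulum (-0.63), were lower there, and P3h3 (0.54) and Pxdn, which cross-links type 4 collagen (0.44), were higher.

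Of 12 collagen receptors tested, 1 was called higher and 7 lower in E14.5 mutants, and 4 higher and 3 lower in E16.5 mutants. Over all genes 2.95% were called higher and 4.57% lower at E14.5, and 12.2% higher and 15.7% lower at E16.5. The median log2 fold change of the receptors was -0.32 at E14.5 and 0.15 at E16.5. Itga1, the integrin chain that binds type 4 collagen, was the 1 called higher at E14.5 (log2 fold change 0.38) and was also higher at E16.5 (0.96). Itga10, which binds cartilage collagen (-1.34), and Itga11, which binds type 1 collagen (-0.63), were lower at E14.5, and Itga11 was also lower at E16.5 (-0.59). Of the 12 collagens left out by the rule, 3 were called higher and 7 lower in E14.5 mutants, and 5 higher and 4 lower in E16.5 mutants, beside the same shares of all genes. Their median log2 fold change was -0.55 at E14.5 and 0.02 at E16.5. In the authors' deposited tables, made with DESeq2, 1 of the 32 collagens was higher and 15 lower in E14.5 mutants, and 9 were higher and 4 lower in E16.5 mutants, at the same threshold. The share of all genes under that threshold in those tables was not counted here, so these counts cannot be set against the edgeR counts. In the DESeq2 run made here 13.9% of all genes were called at E14.5, against 7.52% in edgeR.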

How the data were processed

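RNA-seq libraries of 12 samples in 4 groups were used. The authors deposited raw read counts per gene for each sample. Per the submitters' processing notes, reads were aligned to mm9 with HISAT2, counted with featureCounts and compared with DESeq2. Their versions, the annotation and the strand setting are not given in the sources used here. The authors' deposited comparison tables hold a log2 fold change and an adjusted p-value per gene. The deposited tables that hold all samples together, 24 columns of them per sample, were left aside. In the files, 27 genes carry date-like names, hold 0.251% of counts and stayed in the fits unnamed.

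edgeR 4.0.16 under R 4.3.3 was run on the counts (TMM factors, filterByExpr, quasi-likelihood test, Benjamini-Hochberg adjustment over all genes tested, called under 0.05). Genotype was tested on the 6 samples of each age, and age changes and the difference of genotype effects on all 12 with 4 group means. SE is the log2 fold change divided by the root of the F statistic. The fits were tested on simulated data. Exon lengths and overlaps came from GENCODE annotation of GRCm38, a different build from that of the files, and were used for lengths only. By these, 10 of the 32 genes have exons overlapped by another gene.

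The collagens and gene lists were chosen with earlier results of these data known. All 32 genes are reported, with values in each library for those called between genotypes and for types 4 and 6, and other genes come from the lists (up to 4 called members of a list at each age), with Fgf8 and Shox2 as checks. Shox2 averaged 213 ± 16.8 CPM in E14.5 mutants against 179 ± 17.3 CPM in their controls, with 139.8 ± 22.9 CPM in E16.5 mutants against 90.6 ± 5.93 CPM in theirs (SD, n = 3). Alternatives were other scaling factors, DESeq2 1.42.0, no low-count filter, a replicate block, a term that marks replicate number 3, replicates 1 and 2 alone, all 12 samples, each library left out, and E16.5 mutant libraries 1 and 3 left out. That last fit has 1 mutant library at E16.5. Its E16.5 genotype comparison takes its spread from the E16.5 controls alone, and its other comparisons from the groups with more than 1 library. Its adjusted p-values therefore do not measure the spread of E16.5 mutants. Same-numbered samples deviated together weakly at E16.5 (correlations 0.105, 0.161 and 0.222 over 17550 genes). Samples numbered 3 did so across the ages too (0.158 in controls and 0.1595 in mutants). No label states pairs, so the replicate block joins samples by number only, and the main tests use no block.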

Additional observations from a re-analysis of the deposited data

Results flagged for a closer look

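For 13 of the 32 collagens the genotype effect (mutants over controls, log2) differed between the ages by a test of the difference itself in edgeR. The E16.5 effect exceeded the E14.5 effect by 1.62 for Col25a1, 1.12 for Col24a1, 0.95 for Col6a3, 0.91 for Col8a2 and 0.91 for Col28a1. It exceeded it by 0.84 for Col15a1, 0.80 for Col23a1, 0.63 for Col16a1 and 0.63 for Col12a1. The excess was 0.57 for Col4a2, 0.47 for Col4a1 and 0.28 for Col26a1. For Col13a1 the difference was -1.10, the effect being more negative at E16.5. In 8 of the 13 the call held in every alternative run. The exceptions were Col4a2, Col13a1, Col23a1, Col26a1 and Col28a1. For Col23a1 the call was lost with replicates 1 and 2 alone, just over the threshold (adjusted p = 0.050). For Col28a1 it was lost without E16.5 mutant library 1, E14.5 control library 3 or E16.5 control library 3 (adjusted p = 0.0611, 0.0710 and 0.0551), as well as without E16.5 mutant libraries 1 and 3 together and with replicates 1 and 2 alone (adjusted p = 0.142 and 0.185). For Col26a1 it was lost in 10 alternatives, 8 of them single libraries left out, and one of them without E16.5 mutant libraries 1 and 3 (adjusted p = 0.185).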

How the results depend on the processing

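Of the 9 collagens called at E14.5, 8 were called in every alternative run, all but Col6a2. At E16.5 this held for 5 of 12 (Col8a2, Col13a1, Col22a1, Col23a1 and Col25a1), with age for 15 of 22 in mutants and 21 of 25 in controls. The E14.5 count of 9 was 17 with DESeq2, 18 with a replicate block and 17 with a term marking replicate number 3. The E16.5 count of 12 was 6 with replicates 1 and 2 alone, 7 without mutant libraries 1 and 3, and 13 with the replicate block, which added Col8a1 and changed no other call at that age. The block gave 24 calls with age in mutants (22 without it, Col4a1 and Col4a2 being added) and 16 for the difference of effects (13 without it). At E14.5 same-numbered samples did not all deviate together (correlations 0.0193, 0.0445 and 0.160), and at both ages the block joins samples by number only. The cause was not tested. Leaving out 1 library gave 8 to 13 calls at E14.5, 7 to 14 at E16.5, 19 to 22 with age in mutants, 23 to 26 with age in controls and 11 to 15 for the difference of effects. The sign turned with a call in an alternative for Col25a1 with age in mutants without E16.5 mutant libraries 1 and 3 (log2 fold change -0.38) and for Col10a1 with age in mutants without E14.5 mutant library 3 (5.58, against -0.20 with all libraries and down to -0.73 without E14.5 mutant library 2), where the remaining E14.5 mutant counts were 0. Over all genes, calls at E14.5 moved from 1252 to 526, 673, 666 and 630 without mutant library 1, mutant library 2, control library 1 and control library 3, 2132 with DESeq2, 3155 with the block and 2938 with the term marking replicate number 3, at E16.5 from 4793 to 3079 and 2781 without control libraries 1 and 2, 2286 with replicates 1 and 2 alone and 2496 without mutant libraries 1 and 3, and for the difference of effects from 3921 to 6055, 1961 and 2017 with the block, with replicates 1 and 2 alone and without those libraries. Depth limits Col10a1, Col19a1, Col4a3 and Col6a5, which lay near or under 1 CPM.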
